A study of Sus scrofa with 12 samples.

Results

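The centrosomal CEP family was followed here through the endometrium of sows fed 4 diets. Its members were taken by name: 36 genes called CEP and a number, together with CNTLN, NIN, PCNT, CROCC, CNTROB, SASS6, PLK4, STIL and CENPJ, which gave 45 of the 20674 genes in the table. The family was put forward with the effect of NCG on these libraries already known, so every value of the NCG comparisons is given as a description of the members. No p-value of a member is printed for them. Counts of members past a threshold in them, also in fits without single libraries, are no test of the family. The endometrium came from Landrace × Yorkshire sows of the second or the third parity after a feeding period of 114 days of gestation. The L − N diet held 3.73% crude fiber, L + N held the same fiber with 0.05% N-carbamylglutamate (NCG), H − N held 7.46% crude fiber, and H + N held 7.46% with 0.05% NCG. NCG is an analog of N-acetylglutamate, the activator of the first step by which the body makes arginine. Each group had 3 libraries of poly(A) RNA, 12 in all. The labels number the libraries of a group and do not tie each to a sow, so p-values measure the spread between these libraries.

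The centrosome organizes the microtubules of an animal cell, and its core is a pair of centrioles surrounded by pericentriolar material. A cell duplicates its centrioles once in each cell cycle: the kinase PLK4 starts the process at the wall of the parent centriole, STIL and SASS6 build the cartwheel that sets the shape of the new one, and CENPJ, CEP135, CEP120 and CEP295 help it to lengthen and mature. In a resting cell the older centriole becomes the basal body of a cilium, which needs the appendage proteins CEP164, CEP83 and CEP89 and the transition zone protein CEP290. In the endometrium, which renews its epithelium and carries ciliated cells, both uses of the centriole occur.

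The members lay apart in the genome, on 19 chromosomes and scaffolds of the Sscrofa11.1 assembly, with 7 on chromosome 1, 7 on chromosome 6, 5 on chromosome 9 and 5 on chromosome 12. In the deposited Gene Ontology annotation, 33 of the 45 carried the term centrosome, out of 380 genes in the table, and 20 carried the term centriole, out of 86 genes. Cilium assembly was listed for 15 members, centriole replication for 8, and a KEGG pathway for 2. The members tested were long, with a median transcript length of 5790 bases against 3730 bases for all genes tested. As many as 17 members overlapped another annotated gene. CEP290 shared 1166 bases with C5H12orf29 on the opposite strand, CEP83 shared 9637 bases with PLXNC1, and CEP295NL lay wholly within TIMP2. The paper describes the libraries as strand-specific, but whether the authors counted by strand is not given in the sources used here. It is therefore not known how reads in these stretches were assigned.

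Library totals lay between 14369781 and 19309724 counts, of which the members held 0.0989% to 0.167%. Genes used as markers of the tissue were expressed. Those listed for endometrial stroma summed to 22532 to 50833 CPM (counts scaled to library size with TMM factors) per library. The 8 epithelial markers (EPCAM, KRT8, CDH1 and others) summed to 1017 to 2320 CPM. No other tissue was compared, so these sums do not identify the tissue. Smooth muscle markers reached 5263 CPM in L − N replicate 1, against 880 to 2111 CPM in the other 11 libraries. The replicates differed by far more than counting error, with a chi-square of 23.5 to 101 per gene between pairs of libraries in a group. Fold changes are on the log2 scale.

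After the filter on low counts, 44 members were tested among 15351 genes. The member that did not pass was CEP295NL, with 1 to 11 counts in each library. Compared per length, as the deposited FPKM, the family covered a wide range of levels. CEP68, which helps to hold the parent centrioles together, was highest at 24.3 ± 3.23 FPKM (SD, n = 12), followed by CEP57 at 14.8, CEP95 at 11.6, CEP120 at 10.5 and CEP192 at 8.30. The lowest among those tested were CEP152 at 0.53, CEP72 at 0.62 and CEP57L1 at 0.83, and the median over the 45 members was 3.54 FPKM. The core genes of centriole duplication therefore included a well-expressed scaffold, CEP192, and a scarce one, CEP152, although the proteins of both recruit PLK4 to the centriole.

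With NCG in the diet, most of the family was higher in the endometrium. When L + N and H + N were set together against L − N and H − N, 40 of the 44 members had a higher mean and 4 a lower one, and their median was 0.53 on the log2 scale, while the median of all 15351 genes was −0.03 and 46.9% of them were higher. A gene was called where its Benjamini-Hochberg adjusted p in edgeR was under 0.05 and its log2 fold change was beyond 1 in either direction, here referred to as the thresholds. They were passed by 5 members, CEP290, CNTLN, CEP135, PLK4 and CEP162, all higher. Of all genes, 1.80% passed and 1.67% passed with higher values, and nothing is read from the difference, because the family was chosen on this contrast. CEP152 at 1.08 and CEP72 at 1.05 were past the fold threshold alone in edgeR. DESeq2 called both as well, with 7 members in all beside 2.31% of all genes. In bulk tissue, more cells of a type and more RNA per cell cannot be told apart.

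**Figure D1:**
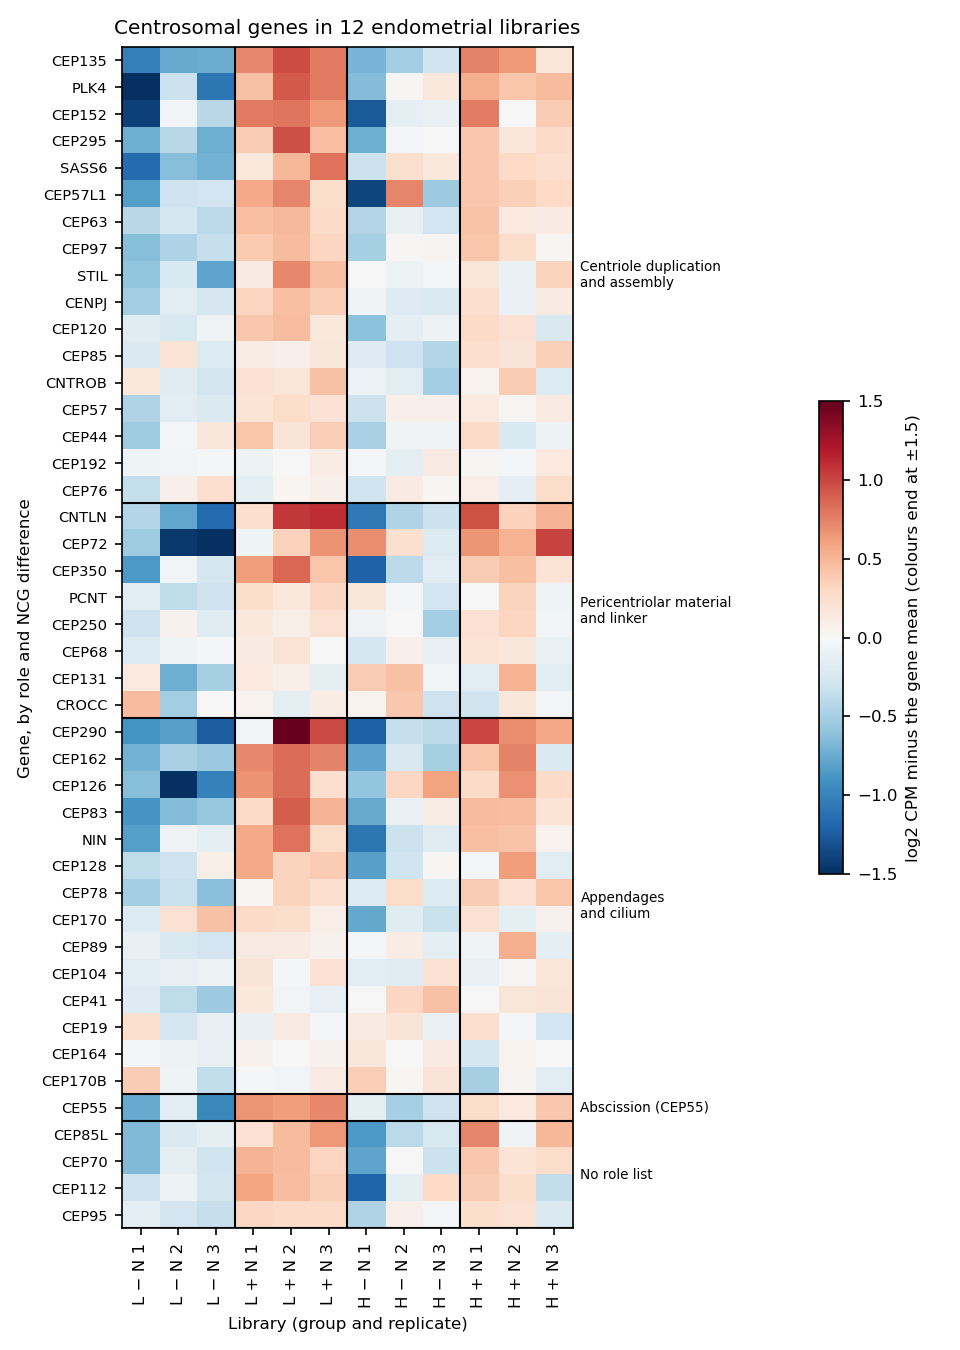
The log2 CPM of the 44 members tested (rows, grouped by role), each centered on its own mean over 12 libraries, in each library (columns, by group). Most rows are above their mean in L + N and H + N and below it in L − N, whereas the rows of CEP192, CEP164 and CEP19 stay pale.

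The summed level of the family separated the libraries by NCG. The 44 members tested gave no more than 1191 CPM in any library without NCG and no less than 1294 CPM in any library with it. The sums ran from 994 to 1091 CPM in L − N, from 1480 to 1612 in L + N, from 993 to 1191 in H − N and from 1294 to 1451 in H + N. Replicate 1 was the lowest library of both L − N and H − N. Taken gene by gene, every library with NCG was above every library without it for 14 members, CEP135, CEP152, CEP162, CEP290, CEP295, CEP350, CEP55, CEP63, CEP70, CEP83, CEP85L, CNTLN, NIN and PLK4. The same held for 3.22% of all genes tested.

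The 17 members of centriole duplication and assembly were all higher with NCG, and their median difference was 0.58 on the log2 scale. CEP135, which links the cartwheel to the microtubules of the centriole wall (chr8:55250902-55323396, plus strand), had 10.3, 12.4 and 12.5 CPM in L − N and 34.8, 41.7 and 36.3 in L + N. On the high-fiber diet it had 13.0, 14.6 and 17.1 CPM in H − N and 35.4, 33.0 and 23.9 in H + N. The 6 libraries with NCG were thus all above the 6 without, and the log2 fold change was 1.36 (SE 0.125), a fold of 2.57. Among the 5 members past the thresholds it had the smallest standard error.

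PLK4, the kinase that sets the number of new centrioles (chr8:96989011-97013324, minus strand), had 3.25, 8.46 and 4.97 CPM in L − N and 14.5, 20.2 and 18.4 in L + N. Its values were 6.74, 10.7 and 11.9 CPM in H − N and 15.6, 14.2 and 14.8 in H + N. The groups with and without NCG did not overlap on either fiber level, and the log2 fold change over both was 1.14 (SE 0.226). The H + N libraries lay close together, with a mean of 14.9 ± 0.663 CPM (SD, n = 3), while L − N spread from 3.25 to 8.46.

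STIL, which activates PLK4 and binds SASS6 (chr6:164197511-164266615, plus strand), had 9.87, 12.7 and 8.60 CPM in L − N, 16.4, 24.9 and 20.5 in L + N, 15.0, 14.2 and 14.8 in H − N and 16.9, 14.0 and 18.9 in H + N. Here NCG and control libraries were apart on the low-fiber diet and overlapped on the high-fiber diet. SASS6, the protein of the cartwheel hub (chr4:117985599-118049129, plus strand), had 4.71, 6.77 and 6.45 CPM in L − N, 11.9, 15.0 and 18.7 in L + N, 8.50, 12.6 and 11.9 in H − N and 14.0, 13.1 and 12.6 in H + N. Its lowest group was L − N, and H − N lay above L − N and reached into L + N. SASS6 shares 35 bases with TRMT13 and 36 with MFSD14A. The log2 fold changes with NCG were 0.58 (SE 0.143) for STIL and 0.81 (SE 0.161) for SASS6.

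CENPJ, which controls the length of the new centriole (chr11:289660-357920, minus strand), had 13.6, 17.2 and 16.4 CPM in L − N, 24.3, 26.7 and 25.2 in L + N, 18.8, 17.0 and 16.8 in H − N and 23.2, 18.2 and 21.2 in H + N. The lowest library of H + N lay within the range of H − N, and the log2 fold change with NCG was 0.47 (SE 0.102). CEP63 and CEP152 form a ring around the parent centriole from which duplication starts. CEP63 (chr13:75605622-75707087, plus strand) had 15.0, 16.6 and 15.0 CPM in L − N, 27.5, 28.0 and 24.5 in L + N, 14.8, 18.5 and 16.4 in H − N and 27.0, 22.2 and 21.8 in H + N, with all NCG libraries above all others and a log2 fold change of 0.65 (SE 0.100). CEP152 (chr1:122876146-122979851, plus strand) had 1.02, 2.82 and 2.15 CPM in L − N, 5.05, 5.12 and 4.58 in L + N, 1.14, 2.64 and 2.69 in H − N and 5.01, 2.88 and 3.80 in H + N. The L + N libraries of CEP152 lay close together and the other groups spread more widely, and the fold change of 1.08 had a standard error of 0.298.

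CEP192, the other scaffold that brings PLK4 to the centriole and which also gathers pericentriolar material before mitosis (chr6:96611560-96733800, minus strand), stood apart from its partners. It had 72.5, 73.7 and 75.3 CPM in L − N, 72.4, 76.2 and 81.9 in L + N, 74.4, 68.9 and 83.0 in H − N and 77.2, 74.9 and 84.2 in H + N. The 4 groups overlapped throughout, and the log2 fold change with NCG was 0.06 (SE 0.072). Of the rest of the role, CEP76, which limits centriole re-duplication, had a log2 fold change of 0.06, and CEP295, which lets a new centriole become a centrosome, 0.88. The other 7 members, CEP57, CEP57L1, CEP85, CEP97, CEP120, CEP44 and CNTROB, lay between 0.32 and 0.80.

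**Figure D2:**
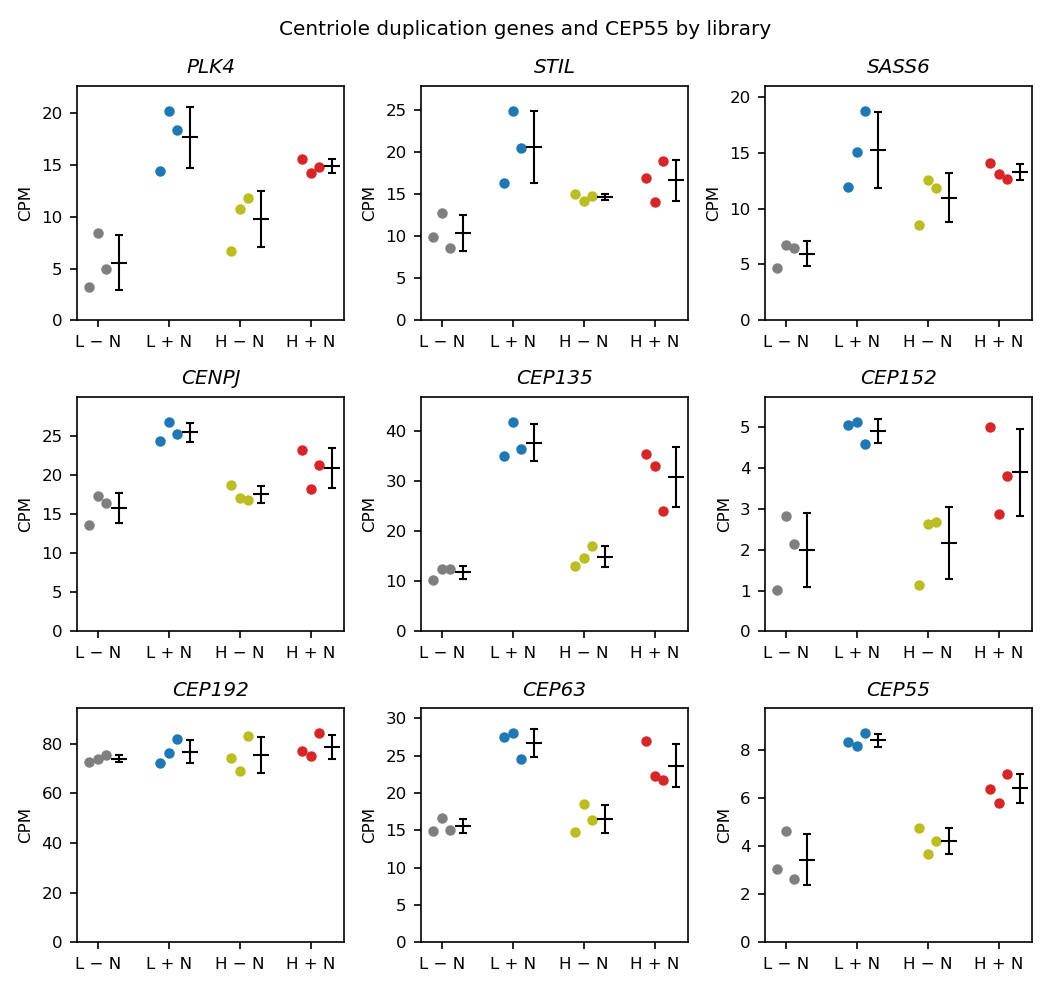
CPM (vertical axes, from 0) of the core genes of centriole duplication and CEP55 in each library (points) with the group mean and SD (bars, n = 3) on the 4 diets. CEP135 is at 34.8 to 41.7 CPM in L + N and at 10.3 to 12.5 in L − N, and CEP192 is at 68.9 to 84.2 CPM in all 12 libraries.

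CEP55 acts at the other end of the cell cycle, at the bridge between daughter cells, where it recruits the machinery that cuts them apart. At chr14:104957256-104980690 (plus strand), it had 3.06, 4.64 and 2.62 CPM in L − N, 8.35, 8.15 and 8.70 in L + N, 4.77, 3.68 and 4.21 in H − N and 6.39, 5.81 and 6.99 in H + N. All NCG libraries were above all others, and the 3 L + N libraries were also above the 3 of H + N. Its log2 fold change with NCG was 0.94 (SE 0.174), under the threshold of 1.

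Of the 8 members of the pericentriolar material and the linker between centrioles, 7 were higher with NCG and 1 lower, and the median on the log2 scale was 0.32. CNTLN, or centlein, ties the linker to the centrioles (chr1:205371716-205697831, minus strand). It had 4.65, 3.64 and 2.75 CPM in L − N, 7.52, 13.3 and 13.7 in L + N, 2.95, 4.58 and 5.03 in H − N and 12.3, 8.09 and 9.07 in H + N. The lowest NCG library, L + N replicate 1, was above the highest library without NCG, and the log2 fold change was 1.44 (SE 0.227). Its partners in the linker were closer to level: CROCC, or rootletin, had 19.7, 9.78 and 14.2 CPM in L − N, 14.7, 12.9 and 15.2 in L + N, 14.6, 18.7 and 11.4 in H − N and 11.5, 15.8 and 13.9 in H + N. CROCC was the member of this role with a lower mean, at −0.07 (SE 0.184), and the linker proteins CEP68 and CEP250 were at 0.20 and 0.32. PCNT, the main scaffold of the pericentriolar material, was at 0.33, and CEP350 at 0.94.

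CEP72, which anchors microtubule-nucleating complexes through other centrosome proteins (chr16:79559046-79591262, minus strand), was among the scarcest members. It had 1.40, 0.69 and 0.47 CPM in L − N, 1.99, 2.68 and 3.40 in L + N, 3.47, 2.50 and 1.79 in H − N and 3.36, 3.04 and 4.35 in H + N. L − N was below every other group without overlap, and the other groups overlapped with each other. The L − N values rest on only 22, 11 and 7 counts. The log2 fold change with NCG was 1.05 (SE 0.299).

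Among the 14 members of the appendages and the cilium, all tested, 11 were higher with NCG and 3 lower, with a median of 0.40. CEP290, the transition zone protein whose loss causes ciliopathies (chr5:94384397-94474337, plus strand), had the highest fold change of the family. It had 5.22, 5.52 and 4.10 CPM in L − N, 9.56, 31.4 and 19.7 in L + N, 4.15, 7.70 and 7.45 in H − N and 19.8, 16.0 and 14.7 in H + N. The log2 fold change was 1.71 (SE 0.273), a fold of 3.27, and L + N replicate 2 was more than 3 times as high as L + N replicate 1. CEP162, which helps to assemble the transition zone (chr1:53332428-53442464, minus strand), had 11.9, 13.9 and 13.2 CPM in L − N, 32.1, 35.1 and 32.7 in L + N, 11.2, 16.6 and 13.8 in H − N and 26.1, 32.7 and 16.8 in H + N. H + N replicate 3 was only just above the highest library without NCG, and the log2 fold change was 1.11 (SE 0.159).

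CEP126, which is needed for microtubule organization and cilium formation (chr9:32631859-32715458, plus strand), had 7.45, 3.51 and 5.71 CPM in L − N, 18.6, 20.8 and 13.9 in L + N, 7.72, 14.5 and 17.7 in H − N and 14.3, 18.8 and 14.2 in H + N. It was low in L − N, and H − N spread across most of the range of the groups with NCG. The outer appendage proteins were not alike: CEP83, which places them on the centriole, was at 0.94 with NCG, CEP89 at 0.24, and CEP164, the platform on which ciliary vesicles dock, at −0.03 (SE 0.076). CEP164 had 38.8, 37.6 and 36.4 CPM in L − N, 41.4, 39.5 and 41.5 in L + N, 44.7, 39.7 and 43.5 in H − N and 33.2, 41.0 and 39.5 in H + N. NIN, or ninein, of the inner appendages was at 0.84.

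CEP170 and CEP170B are related proteins that bind microtubules, CEP170 also at the inner appendages. CEP170 (chr10:16068544-16191277, minus strand) had 49.0, 66.5 and 76.6 CPM in L − N, 69.2, 68.2 and 60.9 in L + N, 33.3, 49.9 and 45.0 in H − N and 66.5, 51.8 and 59.1 in H + N. CEP170B had 52.5, 38.6 and 31.2 CPM in L − N, 39.8, 39.0 and 43.7 in L + N, 52.1, 41.1 and 45.9 in H − N and 28.5, 41.3 and 35.9 in H + N. H − N of CEP170 lay below both groups with NCG, the groups of CEP170B overlapped, and CEP170B had the lowest log2 fold change of the family with NCG, at −0.20 (SE 0.136). The members outside any role list, CEP85L, CEP70, CEP112 and CEP95, were at 0.85, 0.72, 0.53 and 0.39.

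**Figure D3:**
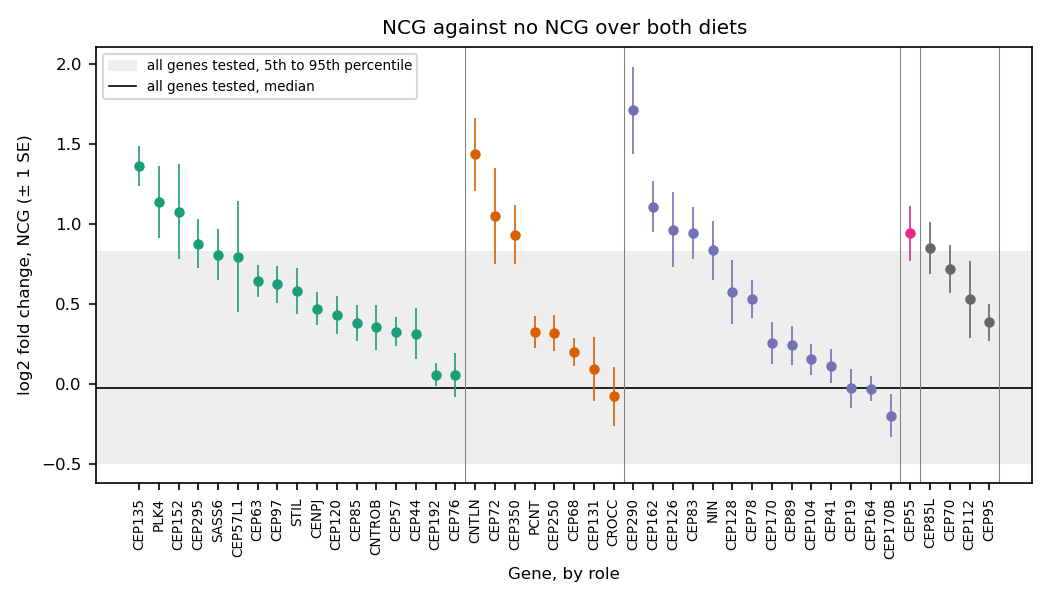
Log2 fold change with NCG over both diets (vertical axis, bars ± 1 SE) of the 44 members tested, ordered within each role (colors), with the median (line) and the 5th to 95th percentile (gray band) of all genes tested. CEP290 at 1.71, CNTLN at 1.44 and CEP135 at 1.36 lie above the band, which ends at 0.83, and CEP170B at −0.20 is lowest.

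Scarcer members had a higher median than abundant ones. All genes tested were split by mean CPM into 3 equal classes, and the NCG difference of the members had a median on the log2 scale of 0.88 in the lowest class (14 members), 0.39 in the middle class (22 members) and 0.32 in the highest class (8 members). The medians of all genes in the same classes were 0.09, −0.04 and −0.07. With the same split by gene length, 28 of the 44 members were in the longest class, where their median was 0.55 and that of all genes 0.08. In the middle class by length 15 members had a median of 0.39, against −0.03 for all genes.

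The fiber levels were then taken apart. On the low-fiber diet, L + N against L − N, 42 of 44 members were higher with NCG, and their median on the log2 scale was 0.69 against −0.02 for all genes. The thresholds were passed by 11 members, CEP290, CEP126, CEP135, PLK4, CNTLN, CEP72, CEP162, SASS6, CEP83, CEP55 and CEP295, all higher, while 3.99% of all genes passed, 3.32% with higher values. Without overlap between the 3 libraries of L + N and the 3 of L − N were 36 members, against 18.0% of all genes with L + N above. Single libraries decided part of this count. Leaving out L − N replicate 3 gave 4 members, with 0.918% of all genes called in that fit, and leaving out L + N replicate 2 gave 5 members, with 1.18%. With all libraries, DESeq2 called 12 members, CEP152 among them, beside 5.75% of all genes.

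On the high-fiber diet, H + N against H − N, 38 of 44 members were higher, with a median of 0.36 against 0.01 for all genes. None passed the thresholds in edgeR, where 0% of all genes passed, and 15 members, all higher, had an unadjusted p under 0.05, as did 8.67% of all genes in either direction and 5.35% with higher values. This count is a description too, since the family was chosen on the effect of NCG. DESeq2 called 1 member, CEP135, beside 0.163% of all genes. The libraries of H + N were above those of H − N without overlap for 17 members, against 7.82% of all genes. The highest log2 fold changes on this diet were 1.39 (SE 0.382) for CEP290, 1.23 (SE 0.320) for CNTLN and 1.05 (SE 0.176) for CEP135, each also among the members called on the low-fiber diet, where the values were 2.03, 1.64 and 1.68. Some members with high values on the low-fiber diet were lower on the high-fiber diet: CEP126 was at 1.68 and 0.25, SASS6 at 1.34 and 0.27, PLK4 at 1.67 and 0.61, and STIL at 0.98 and 0.18.

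Whether the effect of NCG differed between the fiber levels is the interaction, which the pooled NCG contrast does not determine but which shares all its libraries. It also subtracts the NCG difference at low fiber. That difference belongs to what was known when the family was put forward, so negative values here may follow from the choice. The counts, intervals and p-values of the interaction are therefore no test of the family. Of the 44 members, 38 had a smaller or more negative NCG difference at high fiber than at low fiber and 6 a larger one, with a median difference of −0.34 on the log2 scale against −0.01 for all genes. No member passed the thresholds in edgeR or DESeq2, which called 0% and 1.20% of all genes. An unadjusted p under 0.05 was reached by 8 members, SASS6, CEP126, STIL, CEP135, CEP295, CEP41, PLK4 and CEP97, all with the smaller effect at high fiber, against 12.8% of all genes in either direction and 5.33% in that direction. The largest differences were −1.43 for CEP126 (SE 0.468, 95% interval −2.46 to −0.40, edgeR adjusted p = 0.292) and −1.18 for CEP72 (SE 0.594, 95% interval −2.48 to 0.13, edgeR adjusted p = 0.441). SASS6 followed at −1.07 (95% interval −1.77 to −0.37, edgeR adjusted p = 0.270), and CEP135 was at −0.63 (95% interval −1.17 to −0.09, edgeR adjusted p = 0.331). The unadjusted intervals of CEP126, SASS6 and CEP135 leave out 0 and that of CEP72 holds it. None of the differences passed the adjustment over all genes.

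**Figure D4:**
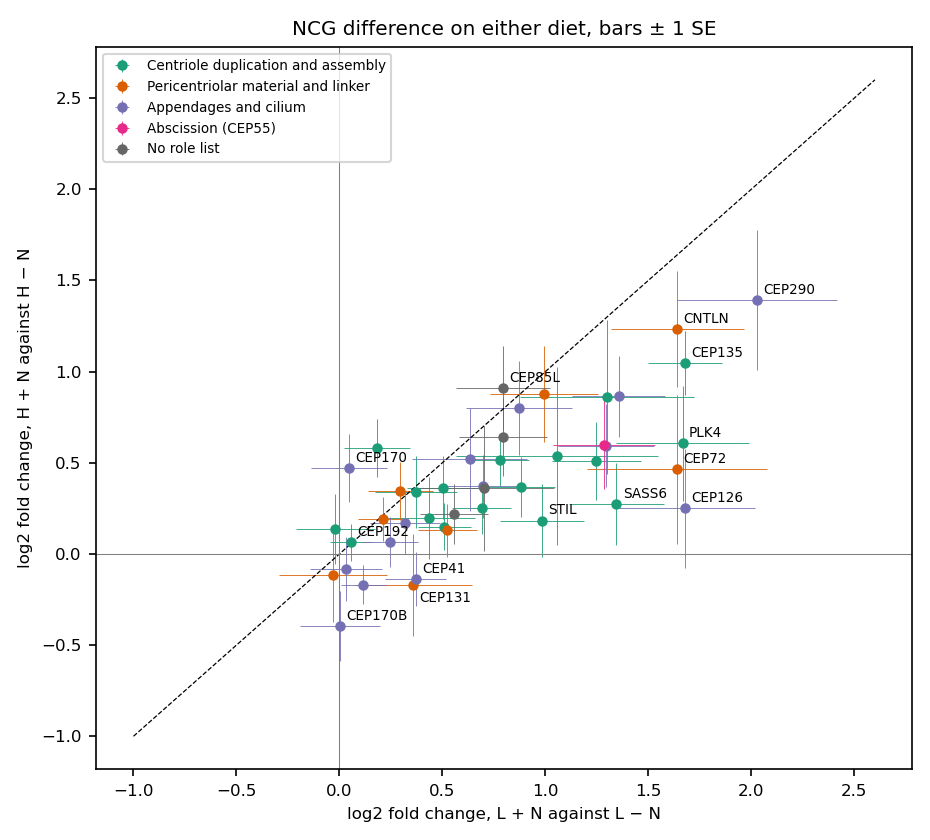
Log2 fold change with NCG on the low-fiber diet (horizontal axis, L + N against L − N) and on the high-fiber diet (vertical axis, H + N against H − N) of the 44 members (colors by role, bars ± 1 SE), with a dashed line of equal values. CEP126 lies far below the line at 1.68 and 0.25, and CEP290 at 2.03 and 1.39 is the farthest to the upper right.

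Between the fiber levels edgeR called no member and DESeq2 called CEP72. With H − N and H + N set against L − N and L + N, 22 members were higher and 22 lower, and the median on the log2 scale was −0.00 against 0.02 for all genes, and no member passed the thresholds in edgeR, where 0.0261% of all genes passed. An unadjusted p under 0.05 was reached by 4 members with higher and 1 with lower values, against 19.5% of all genes. CEP72 had the largest value, 1.01 (SE 0.299, 95% interval 0.35 to 1.66, edgeR adjusted p = 0.120), a fold of 2.01, and CEP126 came next at 0.54 (95% interval 0.03 to 1.05, edgeR adjusted p = 0.234). DESeq2, which called CEP72, called 1.89% of all genes, and edgeR called CEP72 and 2.13% of all genes when L − N replicate 1 was left out. CEP135 was at 0.03 with an interval of −0.24 to 0.30 (edgeR adjusted p = 0.937), so a change of its level with fiber by more than 0.30 on the log2 scale lay outside the interval. In no member were the 6 libraries at one fiber level all above or all below the other 6, against 0.482% and 0.404% of all genes.

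Without NCG, CEP41 was the member that passed the adjusted p threshold of edgeR between the fiber levels. In H − N against L − N, where L − N is also the control of the low-fiber NCG comparison, 32 members were higher and 12 lower, with a median of 0.15 against 0.03 for all genes. None passed both thresholds in edgeR, against 2.91% of all genes, 1 passed the adjusted p alone with a higher value, against 1.56%, and an unadjusted p under 0.05 was reached by 7 higher members and 1 lower one, against 24.4% of all genes. CEP41, a protein of the ciliary axoneme that is needed for the glutamylation of its tubulin (chr18:18416170-18462579, plus strand), rose by 0.63 on the log2 scale (SE 0.150, 95% interval 0.30 to 0.96, edgeR adjusted p = 0.0384), a fold of 1.55. Its values were 25.1, 22.2 and 19.7 CPM in L − N and 28.9, 35.9 and 39.3 in H − N, with 32.3, 27.9 and 26.4 in L + N and 28.9, 32.7 and 32.9 in H + N. CEP41 was higher in 3 of 3 H − N libraries than in any L − N library, and it stayed under the threshold of 0.05 in 3 of the 12 fits that left out a library, with an edgeR adjusted p of 0.0173 to 0.158.

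CEP72 and CEP126 had larger but less certain differences. CEP72 was at 1.59 (SE 0.438, 95% interval 0.63 to 2.55, edgeR adjusted p = 0.0588) and CEP126 at 1.26 (SE 0.338, 95% interval 0.52 to 2.0, edgeR adjusted p = 0.0546). Both were called by DESeq2, which called 5.95% of all genes, and by edgeR when L − N replicate 1 was left out. SASS6 was at 0.87 (95% interval 0.37 to 1.38, edgeR adjusted p = 0.0512), and CEP170, the member with the lowest value, at −0.58 (95% interval −0.99 to −0.18, edgeR adjusted p = 0.0886). CEP135 was at 0.34 (95% interval −0.05 to 0.73, edgeR adjusted p = 0.261). The libraries of H − N were all above those of L − N for 8 members, CEP126, CEP135, CEP164, CEP41, CEP72, CEP78, SASS6 and STIL, against 12.8% of all genes.

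With NCG in both diets, neither edgeR nor DESeq2 called a member between the fiber levels. In H + N against L + N, 35 members were lower and 9 higher, with a median of −0.18 against 0.01 for all genes. L + N is also the NCG group of the low-fiber comparison. Lower values here may follow from the choice of the family, so they are no test of it. No member passed the thresholds in edgeR or DESeq2, which called 0% and 0.0130% of all genes, and no member had an unadjusted p under 0.05, against 4.68% of all genes. The members ran from −0.40 for CEP162 (95% interval −0.88 to 0.08) to 0.42 for CEP72. CEP135 was at −0.29 (95% interval −0.67 to 0.09, edgeR adjusted p = 0.910) and CEP290 at −0.26 (95% interval −1.07 to 0.55, edgeR adjusted p = 0.957), so a difference of up to 1.07 remained possible for CEP290. The H + N libraries were all below those of L + N for CENPJ, CEP55, CEP57 and CEP95, which is 4 members against 5.09% of all genes, and all above for CEP85, against 5.86%.

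The diet with both additions was also set against the diet with neither. This comparison shares L − N with the low-fiber NCG comparison and H + N with the high-fiber one, and it contains the NCG contrast. In H + N against L − N, 41 of 44 members were higher, with a median of 0.46 against 0.02 for all genes. Past the thresholds were 8 members, CEP72, CEP290, CEP126, PLK4, CNTLN, CEP135, SASS6 and CEP83, all higher, against 3.58% of all genes and 2.29% with higher values. CEP72 led at 2.06 (SE 0.439), followed by CEP290 at 1.77 (SE 0.388) and CEP126 at 1.51 (SE 0.338). The lowest were CEP170B at −0.21, CEP170 at −0.11 and CROCC at −0.08. Leaving out L − N replicate 3 or H + N replicate 1 gave 0 members, in fits that called 0.0257% and 0.00642% of all genes. Leaving out L − N replicate 2 or H + N replicate 3 gave 4 members each, with 2.21% and 1.20% of all genes.

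Other centrosome genes were mostly higher with NCG too. Of a list of 60 genes outside the family, 56 were in the table used here and tested, and 44 of them were higher with NCG, and the median on the log2 scale was 0.30. This list and the marker lists below were drawn up with earlier results of these data known, so nothing is read from their shares. Past the thresholds were 5 (8.93%, against 1.80% of all genes), all higher. The 5 genes included AKAP9 and PCM1, scaffolds of the pericentriolar material and its satellites, and ASPM, which acts at the spindle poles. The others were NEK2, the kinase that dissolves the linker before mitosis, and PIBF1, a satellite protein. PCM1 had 44.6, 51.9 and 53.5 CPM in L − N, 121, 165 and 119 in L + N, 45.2, 77.1 and 79.3 in H − N and 117, 121 and 111 in H + N, without overlap between NCG and control libraries, and a log2 fold change of 1.11 (SE 0.143). AKAP9 was at 1.33 (SE 0.214), ASPM at 1.22, NEK2 at 1.05 and PIBF1 at 1.0. In L + N against L − N 8 of the 56 passed (14.3%, against 3.99% of all genes) and in H + N against L − N 6 (10.7%, against 3.58%), all higher. In H − N against L − N 2 passed, both higher, which at 3.57% is close to the 2.91% of all genes. The sum over the list ran from 1605 to 1646 CPM in L − N, 2137 to 2300 in L + N, 1811 to 1980 in H − N and 2105 to 2234 in H + N.

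Markers of cycling cells, like the family, were higher in the libraries with NCG. All 25 had a higher mean, 13 passed the thresholds, against 1.80% of all genes, and their median log2 fold change was 1.05. MKI67, the usual marker of dividing cells, had 30.8, 58.2 and 18.4 CPM in L − N, 100.3, 91.2 and 138 in L + N, 60.4, 60.1 and 76.7 in H − N and 85.0, 99.7 and 126 in H + N. The sum of the 25 ran from 336 to 672 CPM in L − N, 892 to 1179 in L + N, 658 to 685 in H − N and 882 to 1211 in H + N, so that the 6 NCG libraries were above the 6 others, as for the family. In L + N against L − N 17 of the 25 passed, in H + N against L − N 17 and in H − N against L − N 1. Of all genes, 3.99%, 3.58% and 2.91% passed in these comparisons. Without NCG the median of the markers differed from that of the family. In H − N against L − N 24 of the 25 were higher, with a median of 0.75, against 0.15 for the members. Single members were nearer to the markers, with SASS6 at 0.87, PLK4 at 0.81 and STIL at 0.49. Of the 17 members of centriole duplication and assembly, 12 were higher and 5 lower. Within L − N, replicate 2 held 672 CPM of the markers, and replicates 1 and 3 held 336 and 339 CPM. PLK4, STIL, SASS6 and CEP55 were also highest in replicate 2 of L − N, while CEP126 was lowest there. None of the 25 markers was at 3 counts or below in all libraries. Their part in the values of the CEP genes was not tested.

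Markers of ciliated epithelium had medians of opposite sign with NCG at the 2 fiber levels, a difference that was not tested over the list. Of 19, 18 were tested and none passed with NCG. All 18 were higher in L + N than in L − N, as most of the family was, with a median of 0.55, while 15 of 18 were lower in H + N than in H − N, with a median of −0.18, and over both levels the median was 0.16. All 18 were higher in H − N than in L − N, with a median of 1.03, and 1 of them passed the thresholds, against 2.91% of all genes. Their sum ran from 166 to 537 CPM in L − N, 429 to 564 in L + N, 535 to 902 in H − N and 381 to 952 in H + N. The groups with and without NCG overlapped in this sum, unlike the sum over the appendage and cilium members, which was 347 to 363 CPM in L − N, 474 to 537 in L + N, 334 to 409 in H − N and 422 to 485 in H + N. In 2 of 3 H − N libraries the sum of the ciliated-epithelium markers was above that of every L − N library, alongside the higher values of CEP41, CEP126 and CEP72 in H − N. The part of these markers in the values of the CEP genes was not tested.

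**Figure D5:**
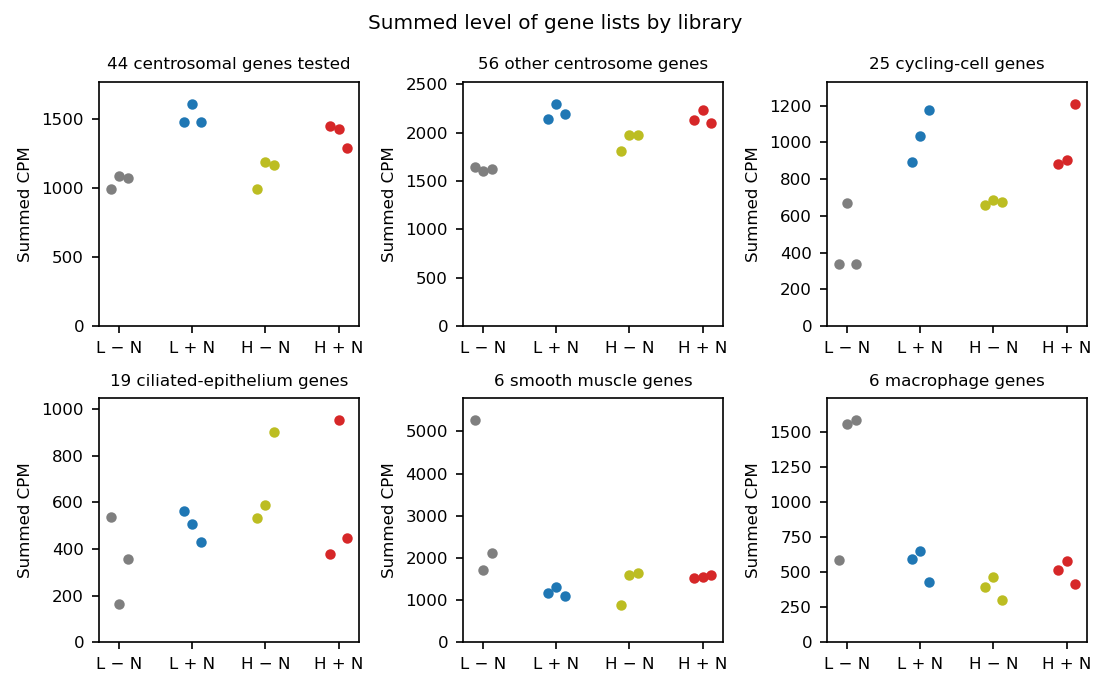
Summed CPM (vertical axes, from 0) per library of the 44 CEP family members, of 56 other centrosome genes and of the markers of cycling cells, ciliated epithelium, smooth muscle and macrophages, with a point for each library. The family sum is 994 to 1091 CPM in L − N and 1480 to 1612 in L + N, and the ciliated sum overlaps among the groups.

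Markers of other cell types also differed between the groups. In L + N against L − N, where 11 members and 3.99% of all genes were called, smooth muscle markers had a median of −1.51 on the log2 scale with 2 of 6 called. Macrophage markers were at −1.02 with 1 of 6, endothelium markers at −0.42 with 1 of 6, and erythroid markers at −3.04 with 1 of 3, and every call of these markers was lower. In H + N against H − N none of these was called, and the medians were 0.15, 0.29, −0.02 and 2.16. Over both fiber levels smooth muscle markers had a median of −0.74 with NCG, and 0 of 6 passed. Macrophage markers had a median of −0.37 with NCG, again 0 of 6, and of −1.45 in H − N against L − N, where 3 of 6 passed, all lower, against 2.91% of all genes. The L − N libraries were uneven in the macrophage sum, with 584, 1555 and 1584 CPM, against 301 to 649 CPM in the other groups. Endometrial epithelium, endothelium, T and NK cells and B and plasma cells had medians of −0.12, −0.23, 0.13 and −0.10 with NCG, with none past the thresholds. Endometrial stroma was at 0.29, with 7 of 8 higher and 1 of 8 past the thresholds, against 1.80% of all genes. Of 5 erythroid markers 3 were tested, with a median of −0.44, and HBB held most of their sum, which ran from 62.6 to 754 CPM in L − N and from 26.7 to 293 in the other groups. Their part in the values of the CEP genes was not tested.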

How the data were processed

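The 12 endometrial RNA libraries were grouped by the deposited titles, which carry the diet and a replicate number. The authors deposited 1 table that holds, per gene, the raw read count and the FPKM of every library. The submitters' processing notes name fastp 0.22.0, HISAT2 2.1.0 and HTSeq 0.9.1 with the Sscrofa11.1 build, and the deposited FPKM could be recomputed from count, length and total to within 1.9e-05%. The strand setting of the counting is not given in the sources used here.

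Counts were analyzed in R 4.3.3 with edgeR 4.0.16. filterByExpr took out low genes, TMM set the scaling, and the quasi-likelihood fit gave each group its own mean over all 12 libraries (8 residual degrees of freedom). A gene was called at a Benjamini-Hochberg adjusted p under 0.05 over the 15351 genes tested and an absolute log2 fold change above 1, the thresholds of the study. CPM carry the TMM factors, log2 CPM a prior count of 2, and FPKM were used only to compare levels between genes. Alternatives were RLE scaling, no filter, DESeq2 1.42.0, a replicate block, a gene length offset and leaving out each library. The fit was tested on 3 simulated data sets for NCG, where it found 98% of 200 genes changed by 2 on the log2 scale, among 15351, with 2.67 false calls on average. Smaller changes and the comparisons between single groups were not simulated. Counts were drawn for each gene on its own, without shifts shared between genes, so these rates may not hold for the real libraries.

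The members, role lists and marker lists were chosen with earlier results of these data known. Values in every library are given for the core of centriole duplication, CEP55, the members with the 5 highest and 3 lowest changes for NCG and for H + N against L − N, and the 2 largest for HF, H − N against L − N and the interaction, and beyond this rule for CEP41, which was picked after its values were seen, since it alone passed an adjusted p between the fiber levels. Coordinates are those of the table, with chromosomes from RefSeq, where all 45 members have the same start and end. No sequence is shown. The spread between libraries, with a biological coefficient of variation of 0.269, limits precision more than depth does, except where counts were low, as for CEP72 in L − N.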

Additional observations from a re-analysis of the deposited data

How the results depend on the processing

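For the members, the medians of the log2 fold change kept their sign with RLE scaling, without the filter, with DESeq2, with the replicate block and with the length offset, except for HF, which was at 0.02 with the length offset. The number of members called differed by more than 1.5 times with DESeq2, which called 1 member for HF, 1 for H + N against H − N and 2 for H − N against L − N, where edgeR called 0. Without single libraries, the members called ran from 5 to 8 for NCG, 0 to 1 for HF, 4 to 12 for L + N against L − N, 0 to 2 for H − N against L − N and 0 to 8 for H + N against L − N. The count for NCG was 8 without L − N replicate 2 or H − N replicate 3, and those of 1 for HF (CEP72) and 2 for H − N against L − N (CEP126 and CEP72) came without L − N replicate 1. The cause was not tested. Without single libraries the median was 0.48 to 0.56 for NCG, −0.03 to 0.04 for HF and −0.40 to −0.26 for the interaction. CEP135, CEP290 and CNTLN were called for NCG in 12 of 12 such fits and in the 5 other alternatives, while PLK4 was not called without L − N replicate 1, and CEP162 was not called without H + N replicate 2 or with the length offset. All these fits reuse the libraries on which the family was chosen, so they describe the calls and add no support for an effect of NCG.

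The replicate numbers were checked as a possible pairing. Libraries with the same number had correlations of −0.322 to 0.283 in their deviations from the group means, against −0.323 to 0.284 for other numbers, and 3 of 12 libraries went best with their own number, so the numbers were not taken to pair the samples. With the replicate block, the members called were 5 for NCG, 11 for L + N against L − N and 6 for H + N against L − N, beside 1.57%, 3.49% and 2.59% of all genes, and 0 for the other comparisons. In L + N against L − N the block lost CEP72 and gained CEP350, and in H + N against L − N it lost CEP126 and CNTLN. With the block, CEP41 in H − N against L − N had an edgeR adjusted p of 0.0748.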
